A study of Mus musculus with 3 samples.

Results

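Small GTPases and their regulators were taken as the transcripts whose gene symbol starts with Rab and a digit, Arhgap, Arhgef, Dock and a digit, or Tbc1d, or is Tiam1 or Elmod2. The rule found 112 transcripts of 67 genes among the 9126 transcripts of 6104 gene symbols in the deposited table. The 67 genes were 16 Rab GTPases, 6 other Rab-named proteins, 14 Tbc1d proteins, 16 Arhgap proteins, 7 exchange factors (6 Arhgef and Tiam1), 7 Dock proteins and Elmod2. RNA came from 3 libraries of metaphase II oocytes of ICR mice, matured in culture for 16 to 18 h in M16 medium. The aged-sec library held aged oocytes matured in M16 mixed 1:1 with the secretome, the factors released by mesenchymal stem cells of human umbilical cord. The aged library held aged oocytes without it, and the young library held young oocytes. Groups follow the sample titles, because the treatment label is the secretome throughout, and the sources used here give no ages for the mice. Each library was 1 pool of 20 oocytes, and each group came from 4 mice, so no value below has a replicate error and no test could be made. Every difference is therefore one between libraries, not between conditions.

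Small GTPases are molecular switches that are active when bound to GTP. Guanine nucleotide exchange factors (GEFs, among them the Arhgef, Tiam1 and Dock proteins) turn them on, and GTPase-activating proteins (GAPs, among them the Tbc1d and Arhgap proteins) turn them off. Rab GTPases direct vesicle transport, and GTPases such as Rac and Cdc42 shape actin. In the mouse oocyte they are known for vesicle traffic to the cortex, for the position of the spindle and for extrusion of the polar body.

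The table limits what can be read from these genes. It holds TPM, which are transcript abundances scaled for length to a total of 1000000 per library, and in each listed transcript the aged value was 1.2 times the young value or more, with no zero. A transcript that was not higher in aged than in young oocytes was not analysed here, so the direction of the age comparison was set by the choice of rows. A lower value in aged-sec than in aged oocytes cannot be told apart from the same choice, which favours high aged values. Listed TPM summed to 321460 in the aged-sec, 324814 in the aged and 229243 in the young library. The listed transcripts were also scaled to equal medians, taken over their log2 ratios to the mean log2 TPM of the 3 libraries. With nothing added to TPM, log2 ratios moved by 0.29 for aged-sec over aged, −0.79 for aged over young and −0.50 for aged-sec over young. This scaling then moves every gene alike, while with 0.5 TPM added genes at low TPM move less. A sign after scaling is therefore relative to the other listed genes. TPM are shares of a library, and fewer cells of a type and less RNA per cell cannot be told apart in a pool. Of 21 oocyte marker symbols (H1f8 also counted as H1foo) 6 were listed, with sums of 904 TPM in aged-sec, 945 TPM in aged and 672 TPM in young oocytes, most of it from Bmp15. Of 16 granulosa and cumulus cell markers only Fshr (0.22, 0.55 and 0.03 TPM in aged-sec, aged and young oocytes) and Kitl (1.56, 1.82 and 1.17 TPM) were listed. Theca and stroma markers (4 of 8 listed) summed to 3.38, 4.42 and 2.38 TPM and endothelial markers (2 of 4) to 3.53, 5.42 and 2.52 TPM in aged-sec, aged and young oocytes. No blood or immune marker of 8 was listed.

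The name rule covers 171 protein-coding genes of the RefSeq annotation, of which the 67 members (39.2%) had a listed transcript, against 27.3% of all protein-coding genes. The share was 63.6% for Dock genes (7 of 11), 47.1% for Arhgap genes (16 of 34), 46.7% for Tbc1d genes (14 of 30) and 27.1% for Rab GTPases (16 of 59). The 67 include Tiam1 and Elmod2, which were added by their own symbols with their values known. The members have 440 annotated mRNAs, and a gene counts as listed if any of its mRNAs is. These shares thus also depend on the number of mRNAs per gene, which was not adjusted for. In 5 genes (Rab33b, Tbc1d15, Rab31, Arhgap20 and Rab40b) every annotated mRNA was listed, and for the others the listed value is that of some variants of the gene. Rab2a shows how far this can go, since its 1 listed transcript stood at 0.20 TPM in aged-sec, 0.31 TPM in aged and 0.09 TPM in young oocytes while its other annotated mRNA was not analysed here. Variants that overlap share reads, so the value of a single variant is uncertain.

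Start regions were available in RefSeq (GRCm38.p6) for 53 of the 67 genes. Sequences of 4 genes are shown: Tiam1 and Rab33b, which stood at least 2-fold above young in aged oocytes, Elmod2, whose listed variants differed from each other, and Tbc1d14, with the lowest aged-sec over aged ratio at 10 TPM or more. Each runs from 150 bases before to 25 bases from an annotated start, 5′ to 3′ on the strand of the gene. Capitals mark motifs that were searched on both strands. The TATA box was searched as TATAAA. The CCAAT box was searched as CCAAT. For the GC box the letters were GGGCGG. The E-box searched for was CACGTG.
Tiam1, internal start (chr16:89818328-89818502, minus strand): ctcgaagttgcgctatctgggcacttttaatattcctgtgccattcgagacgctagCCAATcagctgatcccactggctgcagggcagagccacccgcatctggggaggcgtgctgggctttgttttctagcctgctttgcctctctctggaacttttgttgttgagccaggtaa
Tiam1, upstream start (chr16:89974675-89974849, minus strand): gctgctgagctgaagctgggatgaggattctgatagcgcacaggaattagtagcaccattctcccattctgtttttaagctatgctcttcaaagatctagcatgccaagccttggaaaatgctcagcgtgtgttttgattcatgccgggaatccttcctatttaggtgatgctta
Rab33b (chr3:51483816-51483990, plus strand): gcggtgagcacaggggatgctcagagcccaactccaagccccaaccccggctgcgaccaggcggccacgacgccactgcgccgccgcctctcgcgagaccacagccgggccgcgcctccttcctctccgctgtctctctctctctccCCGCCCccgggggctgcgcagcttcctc
Elmod2 (chr8:83332462-83332636, minus strand): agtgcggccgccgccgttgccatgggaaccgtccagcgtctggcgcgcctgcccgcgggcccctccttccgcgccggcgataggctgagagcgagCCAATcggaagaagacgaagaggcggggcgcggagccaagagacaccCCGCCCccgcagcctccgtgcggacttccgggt
Tbc1d14, NM_133910 start (chr5:36582373-36582547, minus strand): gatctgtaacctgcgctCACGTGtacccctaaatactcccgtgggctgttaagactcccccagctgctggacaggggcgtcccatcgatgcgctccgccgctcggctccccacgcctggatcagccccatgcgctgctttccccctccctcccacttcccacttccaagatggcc
The windows of the 5 starts, taken at 300 bases (250 before and 50 from the start), differed in base composition. The window of Rab33b was 70.0% G and C with 28 CpG, that of Elmod2 70.0% with 36 CpG, and that of Tbc1d14 60.7% with 19 CpG. The Tiam1 windows held 50.7% with 9 CpG at the internal start and 47.0% with 7 CpG at the upstream start. All 32851 windows of the reference had a median of 52.7% and 7 CpG, and the 75 windows of the members had 64.0% and 24 CpG. Among all windows, a GC box stood in 35.7%, a CCAAT box in 37.4%, a TATA box in 13.6% and an E-box in 7.15%. Among the windows of the members these shares were 70.7% for the GC box, 32.0% for the CCAAT box, 6.67% for the TATA box and 18.7% for the E-box. All windows cover 27025 genes, more than the 21900 protein-coding genes of RefSeq, while the members are all protein-coding. No share over protein-coding genes alone was computed, so these gaps cannot be read as traits of the members. The motifs are matches of letters, not sites of a factor.

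Tiam1, a Rac exchange factor, had the largest aged over young and aged-sec over young log2 ratios of the 67 genes, and the largest difference between aged-sec and aged among those at 10 TPM or more. Tiam1 was added to the name rule by its own symbol with its values known, so this rank carries no information on the group. Its main listed transcript (NM_001145887) stood at 27.1 TPM in aged-sec, 10.6 TPM in aged and 0.64 TPM in young oocytes. The 3 libraries were thus far apart, in the order aged-sec, aged, young. The log2 ratio, with 0.5 TPM added to each value here and below, was 1.31 for aged-sec over aged, 3.28 for aged over young and 4.60 for aged-sec over young. After scaling of the listed transcripts to equal medians the 3 log2 ratios were 1.59, 2.68 and 4.27, so each kept its sign. In the GENCODE M21 annotation this transcript begins at the internal start printed above, 156347 bases downstream of the upstream start. It has 13 exons and 1866 coding bases, of which 1782 are shared with the longest coding sequence of the gene (4773 bases, 37.3%), and it ends at the same last coding base. The catalytic exchange domain of Tiam1 lies towards its carboxyl end. The other 2 listed variants, of 11 annotated mRNAs, stayed at or below 0.25 TPM in the 3 libraries. The long-coding mRNAs NM_009384 and NM_001145886 were not analysed here.

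Elmod2, a GAP for the small GTPase Arl2, was one of the 3 most abundant genes. Its main transcript (NM_178736) stood at 90.5 TPM in aged-sec, 102 TPM in aged and 76.4 TPM in young oocytes, a narrow range. A predicted variant (XM_006530980) stood at 56.9 TPM in aged-sec, 89.2 TPM in aged and 3.95 TPM in young oocytes. That variant was low in the young library only, where it made up 4.85% of the listed Elmod2 TPM, against 38.4% in aged-sec and 46.2% in aged oocytes. The sum of the 3 listed variants was 148 TPM in aged-sec, 193 TPM in aged and 81.4 TPM in young oocytes. The log2 ratio of aged over young was 0.42 for the main transcript (−0.37 after scaling) and 1.24 for the sum. All listed genes at 10 TPM or more had a median of −0.27 after scaling. NM_178736 and NM_001170691 have 1 GENCODE M21 model, which begins at the start printed above, while XM_006530980 has none there.

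**Figure D1:**
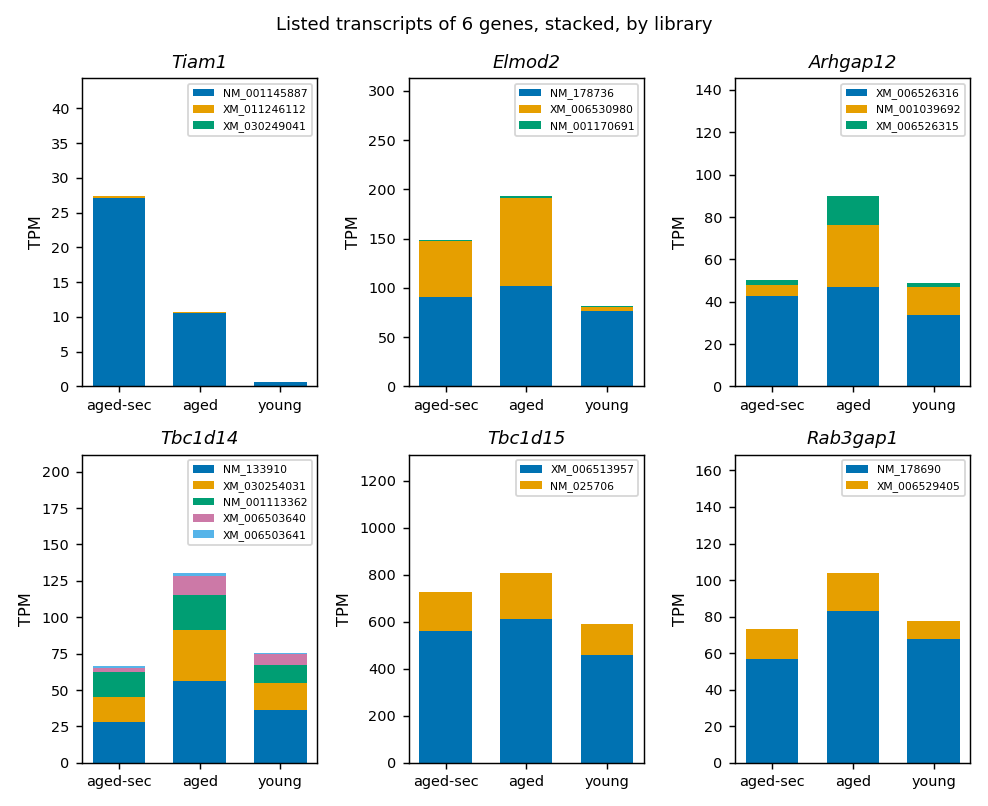
Stacked TPM (y axis, from 0) of the listed transcripts of 6 genes in the aged-sec, aged and young libraries, 1 pool each, with 1 color per transcript. Tiam1 was almost wholly 1 transcript, and the predicted Elmod2 variant was near 0 in the young library alone. Each Arhgap12 variant was highest in the aged library, with an aged-sec over aged ratio of 0.91 for the main one and 0.17 for the others.

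Rab GTPases attach to a membrane compartment and recruit effectors to it. Of the 16 listed, 5 reached 10 TPM in at least 1 library, 7 lay between 1 and 10 TPM and 4 stayed under 1 TPM. Rab33b, a Golgi Rab that also binds the autophagy protein Atg16l1, was the most abundant at 154 TPM in aged-sec, 135 TPM in aged and 63.8 TPM in young oocytes. Its only annotated mRNA was the listed one, so this is the level of the gene. The young value was the low one, and the log2 ratio was 1.07 for aged over young, 1.26 for aged-sec over young and 0.19 for aged-sec over aged. These became 0.29, 0.77 and 0.48 after scaling of the listed transcripts.

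Rab7, which drives maturation of late endosomes, stood at 30.0 TPM in aged-sec, 48.0 TPM in aged and 27.4 TPM in young oocytes for its 1 listed transcript (NM_001293654). The aged library was high and the others were close to each other, but after scaling aged-sec was the low library, at −0.38 against aged and −0.37 against young on the log2 scale. As deposited the log2 ratio of aged-sec over aged was −0.67. This variant has the same 621 coding bases as the longest model of the gene but begins 25234 bases from the nearest RefSeq start window, and the other 4 of 5 annotated Rab7 mRNAs were not analysed here. Rab8b, a Rab of polarized secretion, stood at 27.8 TPM in aged-sec, 26.4 TPM in aged and 18.2 TPM in young oocytes. Rab3d, a Rab of secretory granules, stood at 19.1, 19.5 and 15.4 TPM, and the early endosomal Rab21 at 18.5, 16.1 and 13.2 TPM in aged-sec, aged and young oocytes. The last 3 had aged-sec and aged values near each other, with the young value below both. After scaling the aged library was the lowest in each, with log2 ratios of aged over young of −0.25 for Rab8b, −0.44 for Rab3d and −0.49 for Rab21. The scaled median of all listed genes at 10 TPM or more was itself below 0, at −0.27, so these signs are not particular to the 3 genes.

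Among the low Rab GTPases Rab42 stood at 7.34 TPM in aged-sec and 3.43 TPM in young oocytes, and a log2 ratio of 0.23 for aged-sec over aged. Rab23, known for restraining hedgehog signalling, stood at 4.83 TPM in aged-sec, 6.81 TPM in aged and 5.59 TPM in young oocytes. Rab27a, which works on secretory granules, stood at 1.40, 1.79 and 0.92 TPM in the same order. By compartment, the listed Rabs were 5 of 15 symbols of the endoplasmic reticulum and Golgi group and 3 of 16 of the early and recycling endosome group. They were 2 of 11 symbols of the late endosome, lysosome and autophagy group and 3 of 12 of the secretory group. The 11 count Rab7 and Rab9 also as Rab7a and Rab9a. The summed main transcripts of the 16 Rab GTPases were 276 TPM in aged-sec, 276 TPM in aged and 158 TPM in young oocytes, most of it Rab33b. For the 5 Rab GTPases at 10 TPM or more the median log2 ratio of aged-sec over aged was 0.07, and 0.36 after scaling, against −0.18 and 0.13 for all listed genes at that level.

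The other Rab-named genes encode regulators and effectors. Rab3gap1, the catalytic subunit of the GAP for Rab3, stood at 56.6 TPM in aged-sec, 83.1 TPM in aged and 67.9 TPM in young oocytes (NM_178690). Here aged-sec was the lowest library, and the log2 ratio was −0.55 against aged and −0.26 against young oocytes (−0.26 and −0.76 after scaling). A predicted variant of the gene (XM_006529405) stood at 16.4 TPM in aged-sec, 20.9 TPM in aged and 9.81 TPM in young oocytes, in another order. Rab3gap2, its partner subunit, had 1 listed transcript with log2 ratios of −0.73 for aged-sec over aged and 1.13 for aged over young, at 7.95 TPM in aged and 3.36 TPM in young oocytes. Rab3il1, a Rab exchange factor, stood at 4.05, 4.86 and 3.94 TPM. Rab11fip4, an effector of Rab11, stood at 1.79, 2.23 and 1.30 TPM. Rab3ip, which activates Rab8, and Rab11fip2 stayed under 2 TPM in each library.

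Tbc1d genes encode GAPs for Rab proteins, and they held the most abundant transcript of the whole group. Tbc1d15, a GAP for Rab7 in human cells, stood at 559 TPM in aged-sec, 612 TPM in aged and 458 TPM in young oocytes (XM_006513957). Its other mRNA (NM_025706) stood at 169, 197 and 134 TPM, so both variants had the same order of libraries. Together they made 728 TPM in aged-sec, 809 TPM in aged and 592 TPM in young oocytes. The log2 ratio of the main transcript was −0.13 for aged-sec over aged (0.16 after scaling) and 0.42 for aged over young (−0.38 after scaling). The scaled medians of all listed genes at 10 TPM or more were 0.13 and −0.27.

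Tbc1d14, a Rab11-binding regulator of autophagy in human cells, was the member with the lowest aged-sec over aged ratio among those at 10 TPM or more. Its main transcript (NM_133910) stood at 28.2 TPM in aged-sec, 55.9 TPM in aged and 36.1 TPM in young oocytes. The aged-sec value was below the aged and the young one, with log2 ratios of −0.98 and −0.35. The other curated variant (NM_001113362), which begins 3860 bases away from the nearest window, stood at 17.2, 24.2 and 12.4 TPM. Of the predicted variants XM_030254031 stood at 16.8 TPM in aged-sec, 35.1 TPM in aged and 18.5 TPM in young oocytes, and XM_006503640 at 2.93, 13.0 and 7.91 TPM. All 5 listed variants were below aged in the aged-sec library, and their sum was 66.7 TPM in aged-sec, 131 TPM in aged and 75.2 TPM in young oocytes. After scaling the main transcript kept its sign against aged, at −0.69.

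The remaining Tbc1d genes at 10 TPM or more were closer between aged-sec and aged oocytes than Tbc1d14. Tbc1d19 stood at 25.9 TPM in aged-sec, 33.3 TPM in aged and 26.7 TPM in young oocytes, and Tbc1d8 at 30.1, 31.3 and 24.0 TPM. Tbc1d1, an Akt and AMPK substrate in glucose transporter traffic, stood at 18.9 TPM in aged-sec, 25.3 TPM in aged and 14.9 TPM in young oocytes. Tbc1d23, which tethers endosomal vesicles at the Golgi, stood at 12.1, 11.6 and 7.24 TPM. Tbc1d7, a subunit of the TSC complex, was lower at 1.05 TPM in aged-sec, 2.84 TPM in aged and 1.83 TPM in young oocytes. Tbc1d24 had 5 listed variants, all at or below 0.17 TPM.

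**Figure D2:**
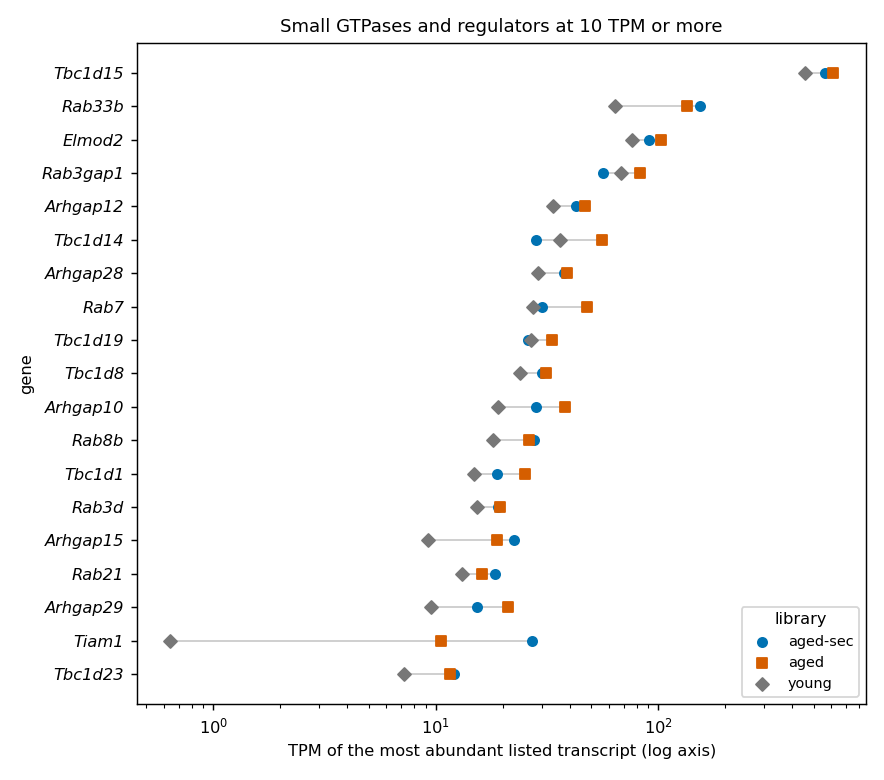
TPM (log axis) of the most abundant listed transcript of 19 genes that reached 10 TPM in a library, with points for aged-sec, aged and young. Each young point lies left of its aged point, as the table requires, and the aged-sec point is furthest right for Rab33b, Tiam1, Arhgap15, Rab8b, Rab21 and Tbc1d23.

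Arhgap genes encode GAPs for GTPases of the actin cytoskeleton, among them Rac and Cdc42. Arhgap12, a Rac GAP, was the most abundant, and its variants differed from each other. The main transcript (XM_006526316) stood at 42.7 TPM in aged-sec, 47.0 TPM in aged and 33.6 TPM in young oocytes. The curated variant NM_001039692 stood at 5.00 TPM in aged-sec, 29.1 TPM in aged and 13.4 TPM in young oocytes, and XM_006526315 at 2.34, 13.7 and 1.93 TPM. The aged-sec over aged ratio was 0.17 for both minor variants and 0.91 for the main one. The sum of the 3 was 50.04 TPM in aged-sec, 89.8 TPM in aged and 48.9 TPM in young oocytes.

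Arhgap29 stood at 15.3 TPM in aged-sec, 21.2 TPM in aged and 9.56 TPM in young oocytes, with a log2 ratio of 1.11 for aged over young (0.35 after scaling). Arhgap15, a Rac GAP, stood at 22.4 TPM in aged-sec, 18.9 TPM in aged and 9.22 TPM in young oocytes for its predicted variant. Its curated variant (NM_001364029) stood at 5.52, 8.91 and 7.14 TPM, in another order, and the sum of the 2 was 27.9, 27.8 and 16.4 TPM in aged-sec, aged and young oocytes. Arhgap10 stood at 28.4 TPM in aged-sec, 37.9 TPM in aged and 19.1 TPM in young oocytes, and Arhgap28 at 37.9, 38.9 and 28.7 TPM. Arhgap21 had 9 listed variants between 0.54 and 5.08 TPM, which summed to 16.9 TPM in aged-sec, 16.1 TPM in aged and 8.43 TPM in young oocytes. Arhgap35 stood at 2.72, 4.69 and 3.42 TPM and Arhgap5 at 1.14, 1.32 and 1.05 TPM in the same order. In Arhgap26 the leading variant was not the same in every library, and both variants stayed below 2 TPM.

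The exchange factors other than Tiam1 were low. Arhgef7, which activates Rac and Cdc42, stood at 7.24 TPM in aged-sec, 7.03 TPM in aged and 5.39 TPM in young oocytes. Arhgef28, a RhoA exchange factor, stood at 4.46, 7.81 and 3.59 TPM, and Arhgef16 at 4.44, 6.06 and 3.91 TPM. The 3 listed variants of Arhgef12, another RhoA exchange factor, each stayed at or below 1.65 TPM. Among the Dock genes, which encode activators of Rac or Cdc42, Dock5 stood at 5.29 TPM in aged-sec, 7.57 TPM in aged and 5.72 TPM in young oocytes. The Cdc42 exchange factor Dock9 had 6 listed variants that summed to 7.16 TPM in aged-sec, 9.13 TPM in aged and 5.58 TPM in young oocytes, of 36 annotated mRNAs. Dock11, of the same subfamily, stood at 1.76, 1.90 and 0.40 TPM.

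Counts over the group were set beside those over all listed genes, with the main transcript of each gene. A gene was counted where the libraries differed at least 2-fold with 0.5 TPM added and the higher one reached 10 TPM. Between aged-sec and aged oocytes 1 of 20 members with enough TPM was higher (Tiam1), against 0.168% of 1789 genes, and 0 were lower, against 2.18%. Between aged and young oocytes 3 of 20 were higher (Tiam1, Rab33b and Arhgap29), against 15.9% of 1759 genes, and a lower one could not be listed. Between aged-sec and young oocytes 3 of 20 were higher (Tiam1, Rab33b and Arhgap15), against 14.2% of 1609 genes, and 0 were lower, against 0.311%. Tiam1 and Elmod2 were added to the name rule by their own symbols with their values known, so no count that holds them carries information on the group. Without these 2 genes 0 of 18 members met the size rule between aged-sec and aged oocytes, 2 of 18 were higher in aged over young and 2 of 18 in aged-sec over young. Counted by transcript, 4 of 29 were lower in aged-sec over aged, against 2.95% of all transcripts with enough TPM. They were 2 minor variants of Arhgap12 and 2 of Tbc1d14. The Tiam1 transcript was the 1 higher there, against 0.223%. Between aged and young oocytes 7 of 29 transcripts were higher, against 18.2%, among them the predicted variants of Elmod2 and Rab3gap1. Between aged-sec and young oocytes 4 of 26 were higher, against 17.1%, and 1 was lower (Arhgap12 NM_001039692), against 0.45%. With the listed variants of each gene summed, 4 of 21 members with enough TPM were higher in aged over young, against 16.7% of all genes. Tiam1 and Elmod2 were among the 4. In aged-sec over young 2 of 21 sums were higher, Tiam1 among them, against 14.3%, and 0 were lower, against 0.343%. In aged-sec over aged 1 of 21 sums was higher (Tiam1), against 0.155%, and 0 were lower, against 2.18%.

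Of the 67 genes 48 had an aged-sec value below the aged one (71.6%), against 72.5% of all listed genes, and after scaling to equal medians 25 were lower (37.3%), against 49.7%. Among the 20 at 10 TPM or more 14 were lower, against 74% of all listed genes at that level, and after scaling 7 were lower (35%), against 33.7%. Their median log2 ratio was −0.13 for aged-sec over aged, against −0.18 for all listed genes at that level, and 0.56 for aged over young, against 0.53. In 13 of the 67 genes aged-sec was below young (19.4%), against 22.1% of all listed genes. At 10 TPM or more these were Tbc1d14, Rab3gap1 and Tbc1d19. On the log2 scale aged-sec was nearer to young than to aged in 22 genes (32.8%), against 42.6% of all listed genes. These comparisons share the aged library, and no test of a difference between the group and the rest was made.

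**Figure D3:**
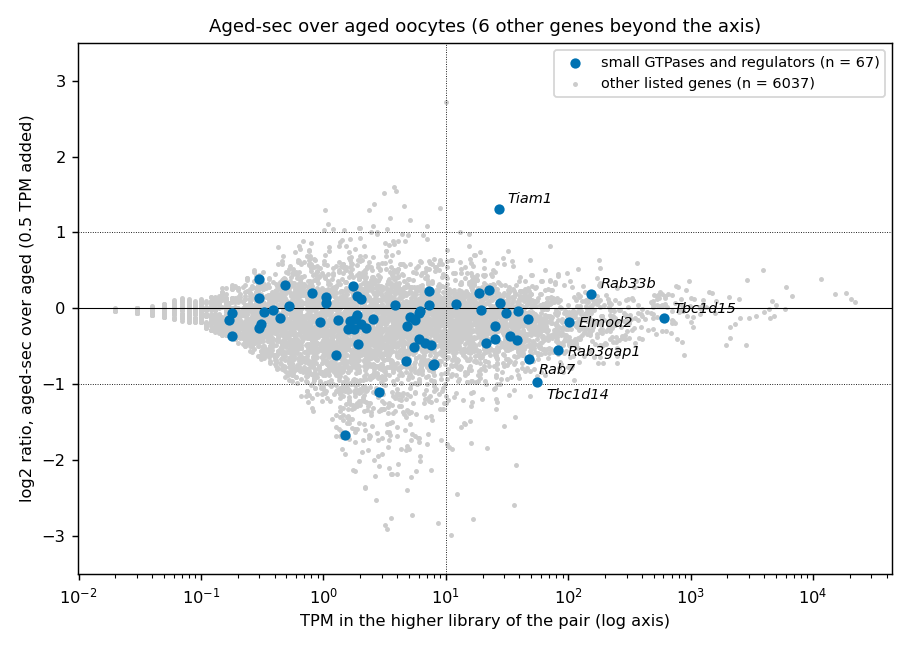
Log2 ratio of aged-sec over aged TPM (0.5 added, y axis) against the TPM of the higher library of the pair (log x axis) for the 67 small GTPase and regulator genes and 6037 other listed genes, 1 point per gene. Dotted lines mark 2-fold and 10 TPM, 6 other genes lie beyond the axis, Tiam1 stands above the upper line and Tbc1d14 just above the lower one, and Arhgap19 and Tbc1d7 lie below the lower line at under 10 TPM.

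Genes outside the name rule that act in the same pathways gave context. Cdc42, which polarizes the cortex, stood at 260 TPM in aged-sec, 247 TPM in aged and 127 TPM in young oocytes, and Rac1, the target of Tiam1, at 139, 160 and 128 TPM. Rhot1, a mitochondrial GTPase, stood at 30.0 TPM in aged-sec, 35.0 TPM in aged and 11.3 TPM in young oocytes and met the size rule in aged-sec and in aged over young. Cdc42 passed that size in aged-sec over young, at a log2 ratio of 1.04.

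Nckap1, a subunit of the WAVE complex through which Rac acts on actin, stood at 16.8 TPM in aged-sec, 36.0 TPM in aged and 19.3 TPM in young oocytes, a log2 ratio of −1.08 against aged. Arpc2 and Actr3, subunits of the Arp2/3 actin nucleator, stood at 103 and 41.7 TPM in aged-sec, 79.8 and 40.7 TPM in aged, and 47.3 and 8.02 TPM in young oocytes. The scaffold Iqgap2 stood at 24.5, 26.4 and 10.4 TPM, Cdc42se2 at 170, 231 and 169 TPM, and Anln, the cytokinetic protein anillin, at 111, 123 and 102 TPM in aged-sec, aged and young oocytes. Actr3 and Iqgap2 met the size rule in both comparisons with young, and Arpc2 in aged-sec over young.

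Itsn2, which activates Cdc42, stood at 11.6 TPM in aged-sec, 24.8 TPM in aged and 17.1 TPM in young oocytes, a log2 ratio of −1.07 against aged. Prex2, a Rac exchange factor, stood at 25.9, 21.6 and 11.9 TPM, Ect2, the RhoA activator of cytokinesis, at 25.9, 31.3 and 22.1 TPM, and Fgd6 at 18.0, 34.0 and 21.0 TPM in the same order. Racgap1, the partner of Ect2, stood at 8.05, 16.1 and 11.2 TPM, and Chn1 at 40.3, 46.2 and 34.0 TPM.

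On the Rab side 20 of 49 exchange factor symbols, 7 of 9 further GAP symbols and 20 of 47 effector symbols were listed. The 49 count Dennd2b also as St5, and the 47 count Rbsn also as Zfyve20. Of the listed genes 5, 2 and 5 reached 10 TPM, and none met the size rule, a count too small to read against 15.9% of all listed genes in aged over young. Trappc2, a subunit of the TRAPP complex, stood at 707 TPM in aged-sec, 625 TPM in aged and 486 TPM in young oocytes. Dennd6a stood at 100.3, 108 and 54.1 TPM, Trappc6b at 19.7, 16.1 and 13.0 TPM, and the Rab GDP dissociation inhibitor Gdi2 at 63.9, 68.3 and 39.8 TPM in the same order. In 19 of the 20 effectors, 5 of which reached 10 TPM, aged-sec was below aged, against 72.5% of all listed genes, with rows chosen for high aged values. Among them were Sytl4 at 55.4, 65.8 and 44.6 TPM, Rims1 at 32.9, 43.3 and 31.5 TPM and Appl1 at 27.4, 30.5 and 23.4 TPM. The further Rab GAPs were led by Rabgap1 at 22.3, 23.3 and 14.7 TPM, Evi5 at 10.2, 13.6 and 7.18 TPM and Sgsm3 at 5.15, 6.22 and 4.87 TPM.

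In the Ras, Arf and Ran branches 12 of 29 Ras, Rap, Ral and Rheb genes, 5 of 28 Arf, Arl and Sar genes and 3 of 8 Ran cycle genes were listed. Of these 6, 2 and 0 reached 10 TPM, and none met the size rule, which is again too few to read against the share of all genes. Below that minimum Rerg, named after its values were seen, stood at 1.78 TPM in aged-sec, 4.45 TPM in aged and 1.11 TPM in young oocytes. Rap1b stood at 76.2 TPM in aged-sec, 80.3 TPM in aged and 59.9 TPM in young oocytes, Rala at 65.8, 70.6 and 54.6 TPM, Nkiras1 at 35.8, 57.1 and 45.8 TPM and Sar1b, a GTPase of the COPII coat, at 18.2, 17.9 and 14.5 TPM. Their regulators included 14 of 36 Arf and 16 of 41 Ras family genes. Iqsec2, an Arf exchange factor, stood at 14.8 TPM in aged-sec, 10.6 TPM in aged and 4.63 TPM in young oocytes, and Rapgef5, a Rap exchange factor, at 27.3, 42.0 and 16.3 TPM. Both met the size rule in aged over young, and Iqsec2 also in aged-sec over young. Arfgef1 stood at 43.0, 47.1 and 33.6 TPM, Acap2 at 21.8, 25.5 and 16.1 TPM, Rasa1 at 50.5, 46.8 and 33.1 TPM and Ralgps2 at 13.7, 17.9 and 9.78 TPM. None of the 5 Elmo genes was listed.

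**Figure D4:**
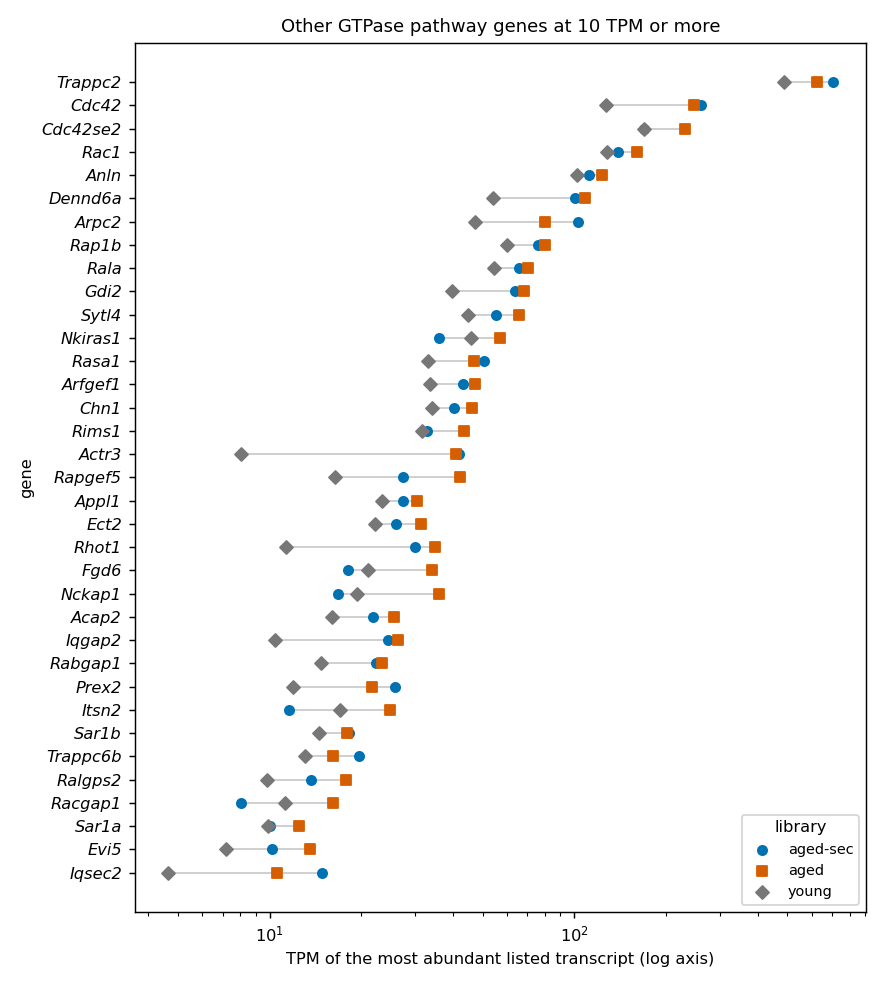
TPM (log axis) of other genes of GTPase pathways at 10 TPM or more, taken from the 3 most abundant of each list and those past the 2-fold size, with 1 point for each of the aged-sec, aged and young libraries. Nckap1, Itsn2 and Nkiras1 were among the genes with aged-sec points left of their young points, while Actr3, Cdc42 and Rhot1 had close aged-sec and aged points with the young point well to the left.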

How the data were processed

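The authors deposited 1 table of TPM per RefSeq transcript, per the file headers, from SMART-Seq2 cDNA with transposon-based libraries on DNBSEQ, per the labels' protocols and the design text. The aligner, quantification program, genome build and reason for the choice of rows were not given in the sources used here. The deposited ratio columns matched ratios recomputed from TPM, with a largest relative difference of 6.6e-07. Depth is unknown from TPM, so no counting interval is given. For each symbol the transcript with the highest mean TPM was used, and the sum of its listed variants beside it. Log2 ratios had 0.5 TPM added. The size rule was a 2-fold ratio with 10 TPM in the higher library. The members, lists and rules were chosen with earlier results of these data known. Named members were those under the size rule, the 4 most abundant per family, the 4 highest and 4 lowest aged-sec over aged ratios, genes whose leading variant crossed 50% of the listed sum, Tiam1 and Elmod2. In pathway lists they were the 3 most abundant and those under the size rule, of which some low ones are not named. Additional members were described after their values were seen. Some named genes and list counts are not reported here. All 67 symbols and 110 of 112 accessions matched RefSeq (GRCm38.p6). Transcript models were those of GENCODE M21, found for 52 accessions. Calculations used Python 3.11.15, pandas 2.3.3 and numpy 2.4.6, and the size rule was tested on simulated TPM.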

Additional observations from a re-analysis of the deposited data

How the results depend on the processing

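Of 59 recomputed values, leaving out the members lower in aged over young, which the choice of rows fixes at 0, 47 kept their direction and stayed within 1.5 times the count or 0.1 of the median. The 59 include medians of aged over young, whose sign the choice of rows fixes in every setting without scaling, so only their size could move there. They also include the members higher in aged-sec over aged, which were 1 (Tiam1) in every setting. Tiam1 was added with its values known, so that count carries no information on the group. Scaling of the listed transcripts to equal medians turned the sign of the members' median log2 ratios, to 0.16 for aged-sec over aged, −0.28 for aged over young and −0.14 for aged-sec over young. This follows from its construction, a shift of every gene by the same amount before 0.5 TPM is added. The medians of all listed genes at 10 TPM or more turned too, to 0.13, −0.27 and −0.11. The scaling also left 0 members higher in aged than in young oocytes, where Tiam1 was under the 10 TPM minimum, and 1 (Tiam1) higher in aged-sec than in young oocytes. Of all listed genes 36 of 1653 and 55 of 1690 were higher in these comparisons after scaling. With the sum of listed variants the median for aged over young was 0.74. With a minimum of 5 TPM 6 members were higher in aged than in young oocytes. With no minimum 10 were higher in aged than in young, 6 were higher in aged-sec than in young, and in aged-sec over aged 2 were lower (Arhgap19 and Tbc1d7). With curated transcripts only, 1 member (Arhgap12) was lower in aged-sec over aged and 1 (Arhgap12) in aged-sec over young, since its main transcript is a predicted one. Shares of all listed genes were not computed at these minima or for curated transcripts. The counts under these settings are therefore not read as results about the members. The count of members nearer to young ran from 17 of 47 with curated transcripts to 25 of 67 with summed variants. No replicate could be left out and no paired analysis was possible because each group had 1 library.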
